A study of Mus musculus with 11 samples.

Results

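The genes of cholesterol synthesis and of fatty acid synthesis were followed in the livers of mice that lack the bile transporter Mdr2, with and without interleukin 6. Of 36 genes chosen by name, 35 had a probe set annotated to them alone and were measured, out of 19938 genes on the array. Acat2 was not analysed here. The 35 fall into a sterol branch of 19 genes, with 15 enzymes and 4 regulators or carriers, and a lipogenic branch of 16 genes, with 13 enzymes and 3 regulators. Where a gene had several probe sets, the one with the highest mean over the 11 arrays stood for it.

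Total RNA from the livers of male mice aged 14 months was hybridised to Affymetrix arrays, 1 array per sample, and the tissue from the knockout mice was labelled as free of tumour. The wild-type group held 3 arrays from C57BL/6 mice, the Mdr2-KO group 4 arrays from mice without Mdr2, and the Mdr2-KO/IL6-KO group 4 arrays from mice without both Mdr2 and interleukin 6, also called the double knockout here. All knockout mice thus lacked Mdr2, and interleukin 6 was missing only on that background. The strain is given in the sample labels for wild type only, although the series text places all 3 groups under that strain. Titles of wild-type samples carry numbers with a W and those of knockout samples numbers with BIL, and whatever this marks cannot be told apart from genotype. The labels do not say that each array came from a mouse of its own, so the p-values reflect how much these samples vary, which may be partly technical.

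Cells make cholesterol from acetyl-CoA through mevalonate, isoprenoid pyrophosphates, squalene and lanosterol, and they make fatty acids from the same acetyl-CoA through malonyl-CoA. The liver is a main site of both. Transcription factors of the SREBP family drive the genes of both pathways: SREBP-2, from Srebf2, mainly those for sterols, and SREBP-1c, from Srebf1, mainly those for fatty acids. The Insig proteins hold SREBPs in the endoplasmic reticulum when sterols are plentiful. Mdr2, encoded by Abcb4, moves phosphatidylcholine into bile, where it protects the bile ducts from bile salts.

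The Abcb4 probe set separated wild type from both knockout groups, as labelled, at log2 levels of 9.74 to 9.95 in the wild-type, 7.54 to 7.98 in the Mdr2-KO and 7.83 to 8.32 in the double-knockout arrays. The Il6 probe set lay between 1.62 and 2.09 in all 11 arrays, near the bottom of the scale, and checks nothing. Hepatocyte markers were high in every array: the mean log2 level over all 10 of 10 measured markers, such as Alb and Ttr, was 11.99 to 12.02 in the wild-type, 11.91 to 12.02 in the Mdr2-KO and 11.84 to 12.00 in the double-knockout arrays. Among them 0 of 10 were called in either comparison with wild type (limma). At an unadjusted p under 0.05, 4 were lower (6.1% of all genes) and 1 was higher in Mdr2-KO/IL6-KO, and 1 was higher in Mdr2-KO. Every Mdr2-KO/IL6-KO array lay below every wild-type array for 6 of 10 markers (6.44% of all genes) and above for 1. In Mdr2-KO 1 marker lay below (3.64% of all genes) and 1 above in this way. Bile duct markers averaged 5.05 to 5.2 in wild type against 5.81 to 5.91 in Mdr2-KO and 5.71 to 6.15 in Mdr2-KO/IL6-KO, and 4 of 9, Krt19, Epcam, Cftr and Cd24a, rose in both. Of the 8 stellate cell and myofibroblast markers 4 rose in both. Of 8 endothelial markers 2 rose in Mdr2-KO/IL6-KO and 1 in Mdr2-KO, of 7 T and B cell markers 1, Cd8a, fell in Mdr2-KO/IL6-KO, and of 8 macrophage markers 0 were called. Fat cell markers averaged 5.73 to 5.92 over all 11 arrays with 0 of 7 called. Car3 raised that average, with group means of 12.23 to 12.68, while those of Adipoq were 2.69 to 2.74. Car3 itself was lower in Mdr2-KO/IL6-KO without overlap, at a log2 change of -0.45 (limma adjusted p = 0.0613). In bulk tissue, fewer cells of a type and less RNA per cell cannot be told apart, and the part of these shifts in the results that follow was not tested.

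Genes of both branches fell in the knockout livers, and the highest count was in the sterol branch of the Mdr2-KO/IL6-KO group. In Mdr2-KO/IL6-KO against wild type 8 of 19 sterol genes fell: the enzymes Mvd, Idi1, Fdps, Sqle, Lss, Cyp51, Tm7sf2 and Ebp. In the lipogenic branch 2 of 16 fell, Acss2 and Acacb. Changes are given on the log2 scale as the estimate ± SE of the model. Called here means an adjusted p under 0.05 in a limma model of all 11 arrays, and 4.19% of all genes were called in that comparison, with 1.28% of all genes called lower. In Mdr2-KO against wild type 1 gene of each branch fell, Cyp51 and Acacb, where 1.26% of all genes were called and 0.316% were called lower. Between the knockout groups 0 of 35 were called, where 0.00502% of all genes, a single gene, were called. The sterol count in Mdr2-KO/IL6-KO rested in part on single arrays: it was 3 (Idi1, Cyp51 and Tm7sf2) without wild-type replicate 2, the highest array for most members, 5 without wild-type replicate 3, 4 without Mdr2-KO/IL6-KO replicate 1 and 5 without its replicate 2. The lipogenic count there was 4 without Mdr2-KO/IL6-KO replicate 4, with Fads2 and Srebf1 added. No member rose in either comparison with wild type, where 2.91% and 0.948% of all genes were called higher in Mdr2-KO/IL6-KO and in Mdr2-KO, nor between the knockout groups, so 10 members were called at least once and 25 never were.

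The members' differences lay mostly on 1 side of 0, and the background did not. The median log2 change of the sterol branch was -0.58 in Mdr2-KO/IL6-KO and -0.31 in Mdr2-KO, both against wild type, and over all genes it was -0.001 and -0.006. The lipogenic branch had medians of -0.37 and -0.24. Without wild-type replicate 2 the medians in Mdr2-KO were nearer 0, at -0.19 for the sterol and -0.12 for the lipogenic branch. All 19 sterol genes and all 16 lipogenic genes had a lower mean in Mdr2-KO than in wild type, where 51.7% of all genes did. In Mdr2-KO/IL6-KO these counts were 18 of 19, Insig2 being the exception, and 16 of 16, where 50.2% of all genes had a lower mean. Both comparisons share the 3 wild-type arrays, so the signs are not independent of each other. Members also varied together from array to array, so within a comparison their signs are not separate observations. At an unadjusted p under 0.05, 14 of 19 sterol and 10 of 16 lipogenic genes were lower in Mdr2-KO/IL6-KO (6.1% of all genes), and 9 and 4 were in Mdr2-KO (4.09% of all genes). Arrays did not overlap, with every knockout array below every wild-type array, for 13 of 19 sterol and 5 of 16 lipogenic genes in Mdr2-KO/IL6-KO (6.44% of all genes) and for 6 and 5 in Mdr2-KO (3.64% of all genes).

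The promoters of the called members are shown because SREBPs are known to bind sterol regulatory elements with the help of the CCAAT-binding factor NF-Y. The members were listed as genes driven by SREBPs. A motif share above that of all genes may come from that choice, so it describes the list and not the fall. RefSeq windows on build GRCm38.p6 were at hand for 29 of the 35 measured members and for 8 of the 10 called ones, all except Fdps and Sqle. The letters CCAAT, searched on both strands, stood within the 250 bases before the start in all 15 sterol genes with a window and in 10 of 14 lipogenic ones, against 37.5% of 27025 genes. Within the nearest 100 bases, a length chosen after the values were seen, they stood in 12 of 15 and 8 of 14, against 21.6%, and in 8 of 8 called members. The called members are part of the branch counts, and uncalled ones were not counted apart. A gene with several windows was counted if any of them held the letters, base composition was not matched, and a match is a description, not a site or a cause. These are the last 100 bases before the start of the 8 called members, read along the gene, with CCAAT or its reverse complement ATTGG in capitals.
Idi1 (chr13:8885506-8885605, plus strand): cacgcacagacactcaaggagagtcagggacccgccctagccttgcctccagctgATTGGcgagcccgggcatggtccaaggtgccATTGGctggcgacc
Mvd (chr8:122443423-122443522, minus strand): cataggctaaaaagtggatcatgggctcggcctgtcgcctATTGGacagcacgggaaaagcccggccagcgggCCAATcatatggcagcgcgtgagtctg
Lss (chr10:76531505-76531604, plus strand): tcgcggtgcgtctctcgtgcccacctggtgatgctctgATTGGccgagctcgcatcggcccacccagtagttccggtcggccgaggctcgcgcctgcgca
Cyp51 (chr5:4104698-4104797, minus strand): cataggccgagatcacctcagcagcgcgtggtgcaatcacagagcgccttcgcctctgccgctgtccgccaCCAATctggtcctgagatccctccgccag
Tm7sf2 (chr19:6067851-6067950, minus strand): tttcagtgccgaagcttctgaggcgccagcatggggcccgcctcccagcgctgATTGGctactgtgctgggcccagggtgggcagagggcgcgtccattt
Ebp (chrX:8193513-8193612, minus strand): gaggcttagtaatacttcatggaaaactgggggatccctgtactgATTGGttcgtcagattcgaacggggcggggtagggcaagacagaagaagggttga
Acss2 (chr2:155517943-155518042, plus strand): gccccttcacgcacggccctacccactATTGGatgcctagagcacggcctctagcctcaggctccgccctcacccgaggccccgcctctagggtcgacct
Acacb (chr5:114165418-114165517, plus strand): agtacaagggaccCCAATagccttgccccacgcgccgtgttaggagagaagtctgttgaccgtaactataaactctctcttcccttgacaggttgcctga

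The sterol regulatory element itself, searched as TCACNCCAC on both strands of the 250 bases, was found in 1 of 15 sterol genes, Hmgcs1, in 1 of 14 lipogenic genes, Mlxipl, in 0 of 8 called members and in 1.22% of all genes. No match says only that these letters are not in this window. The E-box CACGTG was found in 3 of 15, 2 of 14 and 0 of 8, against 6.86% of all genes. The window of Hmgcs1 is shown as the one sterol enzyme with both motifs, TCACCCCAC and CCAAT or ATTGG, in capitals and without overlap.
Hmgcs1 (chr13:119690101-119690350, plus strand): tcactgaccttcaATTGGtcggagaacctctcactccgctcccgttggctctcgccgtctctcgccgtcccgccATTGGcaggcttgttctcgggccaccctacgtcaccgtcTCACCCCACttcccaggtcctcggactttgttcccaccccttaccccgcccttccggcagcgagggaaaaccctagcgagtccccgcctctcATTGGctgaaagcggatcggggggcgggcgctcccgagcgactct

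Among the first enzymes, which lead from acetoacetyl-CoA through mevalonate to isopentenyl pyrophosphate, 1 of 4 fell in Mdr2-KO/IL6-KO. Mvd, the decarboxylase that yields isopentenyl pyrophosphate, had log2 levels of 7.15, 7.92 and 7.51 in the wild-type arrays, 6.60, 7.12, 7.08 and 7.12 in the Mdr2-KO arrays and 6.35, 6.78, 6.86 and 6.88 in the double-knockout arrays. Every knockout array was below every wild-type array, and only the lowest Mdr2-KO array reached into the Mdr2-KO/IL6-KO range. Mvd fell 1.75-fold in Mdr2-KO/IL6-KO (-0.81 ± 0.19 log2 units, limma adjusted p = 0.0254), and in Mdr2-KO its log2 change was -0.55 (adjusted p = 0.264). The call in Mdr2-KO/IL6-KO was lost without wild-type replicate 2, the highest array (adjusted p = 0.119), and also without wild-type replicate 3 (0.0801) or double-knockout replicate 1 (0.0737) or 2 (0.0551). Hmgcs1, the synthase of HMG-CoA whose promoter is printed above, was called in neither: its log2 change was -0.43 in Mdr2-KO/IL6-KO (adjusted p = 0.240) and -0.34 in Mdr2-KO (adjusted p = 0.579). The kinases Mvk and Pmvk, which phosphorylate mevalonate and phosphomevalonate, had log2 changes of -0.23 and -0.59 in Mdr2-KO/IL6-KO and -0.16 and -0.17 in Mdr2-KO, none of them called.

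Both enzymes of the isoprenoid steps fell in Mdr2-KO/IL6-KO. Idi1 interconverts the isomers of isopentenyl pyrophosphate. Its log2 levels were 10.38, 10.66 and 10.39 in the wild-type arrays, 9.93, 10.07, 9.96 and 10.30 in the Mdr2-KO arrays and 9.48, 9.72, 9.93 and 9.55 in the double-knockout arrays. Wild type was highest throughout, and the knockout groups met at about the same level, the highest Mdr2-KO/IL6-KO array beside the lowest Mdr2-KO array. Idi1 fell 1.75-fold in Mdr2-KO/IL6-KO (-0.80 ± 0.13 log2 units, limma adjusted p = 0.00261), a call kept without any single array, and its log2 change in Mdr2-KO was -0.41 (adjusted p = 0.186). The other probe set of Idi1 gave -0.81 in Mdr2-KO/IL6-KO and -0.43 in Mdr2-KO. Fdps, which joins isoprenoid units to farnesyl pyrophosphate, had levels of 10.11, 10.15 and 10.15 in the wild-type arrays, 9.40, 10.03, 9.98 and 9.90 in the Mdr2-KO arrays and 9.43, 9.65, 9.62 and 9.51 in the double-knockout arrays. The wild-type arrays were close together, and Mdr2-KO replicate 1 alone of its group was as low as the double knockout. Fdps fell 1.5-fold in Mdr2-KO/IL6-KO (-0.58 ± 0.13 log2 units, adjusted p = 0.0226), and its log2 change in Mdr2-KO was -0.31 (adjusted p = 0.443). That call was lost on leaving out any 1 of the 3 wild-type arrays (adjusted p = 0.0688, 0.0775 and 0.0817 without replicates 1, 2 and 3) or Mdr2-KO/IL6-KO replicate 1 (0.0706) or 4 (0.0526), while the size of the change stayed between -0.62 and -0.54 over all alternatives.

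Of the 3 enzymes that make squalene and close it to lanosterol, 2 fell in Mdr2-KO/IL6-KO. Sqle, the epoxidase that oxidises squalene, had levels of 9.24, 9.82 and 9.36 in the wild-type arrays, 8.41, 8.91, 9.19 and 8.96 in the Mdr2-KO arrays and 7.78, 8.18, 8.88 and 8.22 in the double-knockout arrays. All knockout arrays were below wild type, and replicate 3 of the double knockout lay among the Mdr2-KO arrays. Sqle had the largest drop of any member, 2.31-fold in Mdr2-KO/IL6-KO (-1.21 ± 0.23 log2 units, limma adjusted p = 0.009985), with a log2 change of -0.60 in Mdr2-KO (adjusted p = 0.367). Without wild-type replicate 2 the adjusted p was 0.0569. Lss, the cyclase that forms lanosterol, had levels of 7.83, 8.59 and 7.92 in the wild-type arrays, 7.54, 7.76, 7.84 and 7.81 in the Mdr2-KO arrays and 7.15, 7.26, 7.59 and 7.44 in the double-knockout arrays. Wild-type replicate 2 stood far above the other arrays of this gene, wild type and Mdr2-KO met, and the double knockout lay below wild type. Lss fell 1.68-fold in Mdr2-KO/IL6-KO (-0.75 ± 0.17 log2 units, adjusted p = 0.0214). Without wild-type replicate 2 its log2 change was -0.51 and the call was lost (adjusted p = 0.0691), as it was without Mdr2-KO/IL6-KO replicate 1 (0.0683) or 2 (0.0625). Fdft1, squalene synthase, was called in no comparison, with log2 changes of -0.43 in Mdr2-KO/IL6-KO and -0.29 in Mdr2-KO; its other probe set gave -0.53 and -0.25.

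**Figure D1:**
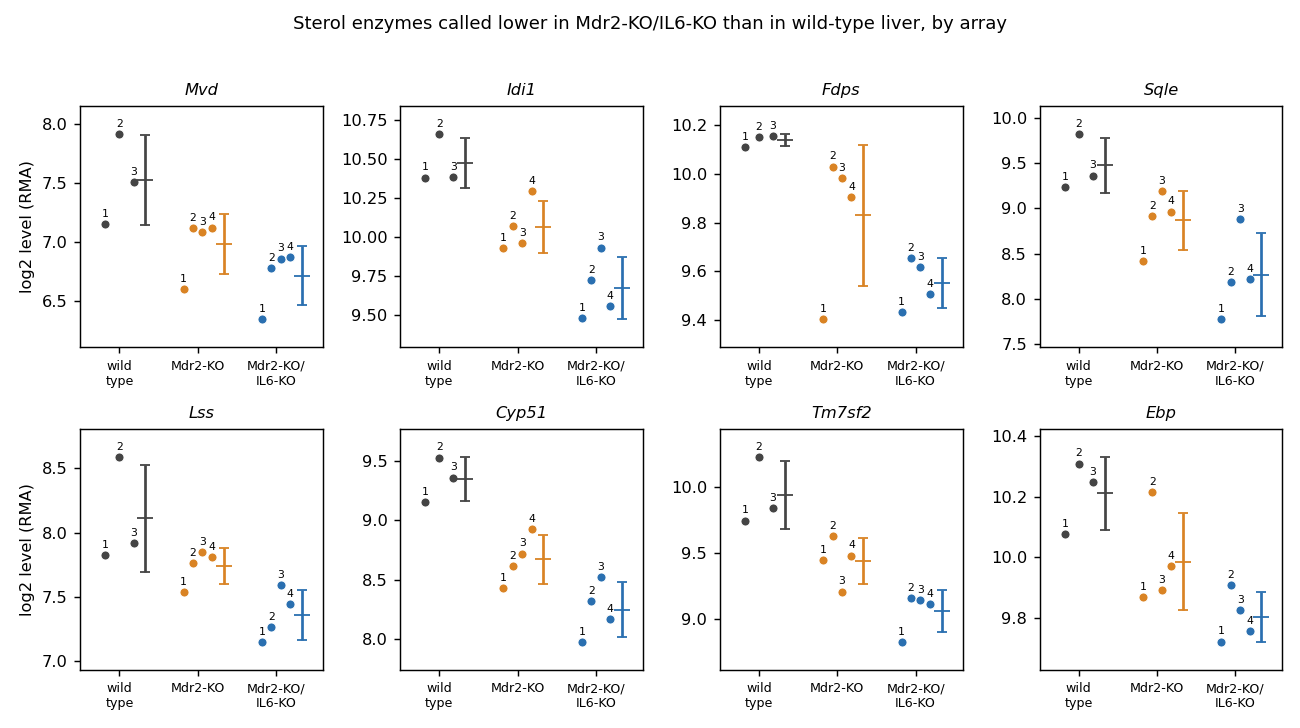
Deposited log2 level (y axis, a separate scale for each gene) of the 8 sterol enzymes that fell in Mdr2-KO/IL6-KO, 1 point per array with its replicate number; the bar beside each group gives mean and SD (n = 3, 4 and 4). The wild-type arrays lie above all Mdr2-KO/IL6-KO arrays in each panel, and the Mdr2-KO mean lies between the other means.

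After lanosterol, 3 of the 6 enzymes that trim and rearrange the sterol fell in Mdr2-KO/IL6-KO. Cyp51, the cytochrome that removes the methyl group at the start of this stretch, had levels of 9.15, 9.53 and 9.36 in the wild-type arrays, 8.43, 8.61, 8.72 and 8.93 in the Mdr2-KO arrays and 7.98, 8.32, 8.52 and 8.17 in the double-knockout arrays. Wild type was apart from both knockout groups, which overlapped only in that the highest double-knockout array exceeded the lowest Mdr2-KO array. Cyp51 fell 2.14-fold in Mdr2-KO/IL6-KO (-1.10 ± 0.14 log2 units, limma adjusted p = 0.000772), the lowest adjusted p of any member, and 1.60-fold in Mdr2-KO (-0.68 ± 0.14 log2 units, adjusted p = 0.0367). The call in Mdr2-KO/IL6-KO held without any single array. That in Mdr2-KO was lost on leaving out any 1 of 8 arrays, with the highest adjusted p, 0.173, without wild-type replicate 2; the others were wild-type replicates 1 and 3, Mdr2-KO replicates 1 to 3 and Mdr2-KO/IL6-KO replicates 2 and 4, with adjusted p from 0.0520 to 0.113.

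Tm7sf2, a sterol reductase that acts on the product of Cyp51, had levels of 9.74, 10.23 and 9.84 in the wild-type arrays, 9.44, 9.63, 9.20 and 9.48 in the Mdr2-KO arrays and 8.82, 9.16, 9.14 and 9.11 in the double-knockout arrays. The 3 groups did not overlap at all, the only member for which this was so. Tm7sf2 fell 1.84-fold in Mdr2-KO/IL6-KO (-0.88 ± 0.13 log2 units, limma adjusted p = 0.00219), also without any single array, and its log2 change in Mdr2-KO was -0.50 (adjusted p = 0.109). Ebp, the isomerase that shifts the ring double bond, had levels of 10.08, 10.31 and 10.25 in the wild-type arrays, 9.87, 10.22, 9.89 and 9.97 in the Mdr2-KO arrays and 9.72, 9.91, 9.82 and 9.76 in the double-knockout arrays. The double-knockout arrays were all below wild type, while Mdr2-KO replicate 2 lay among the wild-type arrays. Ebp had the smallest drop of the called genes, 1.33-fold in Mdr2-KO/IL6-KO (-0.41 ± 0.10 log2 units, adjusted p = 0.0390), and was called in 11 of 22 alternatives. Its call was lost without wild-type replicate 1 (adjusted p = 0.0505), 2 (0.151) or 3 (0.138), Mdr2-KO replicate 4 (0.0569), or any 1 of the 4 Mdr2-KO/IL6-KO arrays (0.0548 to 0.108). Nsdhl and Hsd17b7, which act with each other in removing the methyl groups, did not pass in Mdr2-KO/IL6-KO, with log2 changes of -0.61 (adjusted p = 0.0850) and -0.64 (adjusted p = 0.0796), although for both every double-knockout array was below every wild-type array. Dhcr7, the last reductase before cholesterol, had a log2 change of -0.25 in Mdr2-KO/IL6-KO and of -0.002 in Mdr2-KO (95% interval -0.38 to 0.37).

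The regulators and the carrier of the sterol branch were called in no comparison, though Stard4 was near the threshold. The median log2 change of these 4 genes in Mdr2-KO/IL6-KO was -0.22, against -0.51 for the first enzymes, -0.69 for the isoprenoid steps, -0.75 for squalene and lanosterol and -0.63 for the later steps; the difference between these groups was not tested. Srebf2, which encodes SREBP-2, averaged 7.89 ± 0.16 (SD) over the 3 wild-type arrays, 7.69 ± 0.18 over the 4 Mdr2-KO arrays and 7.66 ± 0.19 over the 4 double-knockout arrays, and its arrays overlapped. Its log2 change in Mdr2-KO/IL6-KO was -0.24 with a 95% interval of -0.51 to 0.04. Insig1, itself an SREBP target, had log2 changes of -0.20 and -0.16 in Mdr2-KO/IL6-KO and Mdr2-KO. Insig2, whose liver transcript is not driven by SREBPs in the same way, was the only member with a higher mean in Mdr2-KO/IL6-KO than in wild type, at a log2 change of 0.06 (95% interval -0.28 to 0.40). Stard4, a carrier that moves cholesterol between membranes, stood just outside the threshold in Mdr2-KO/IL6-KO, with a log2 change of -0.50 and a limma adjusted p of 0.0509, and it was called in 10 of 22 alternatives, against 11 for Ebp. Among single arrays it passed without wild-type replicate 1 or Mdr2-KO replicate 1, 2 or 3.

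**Figure D2:**
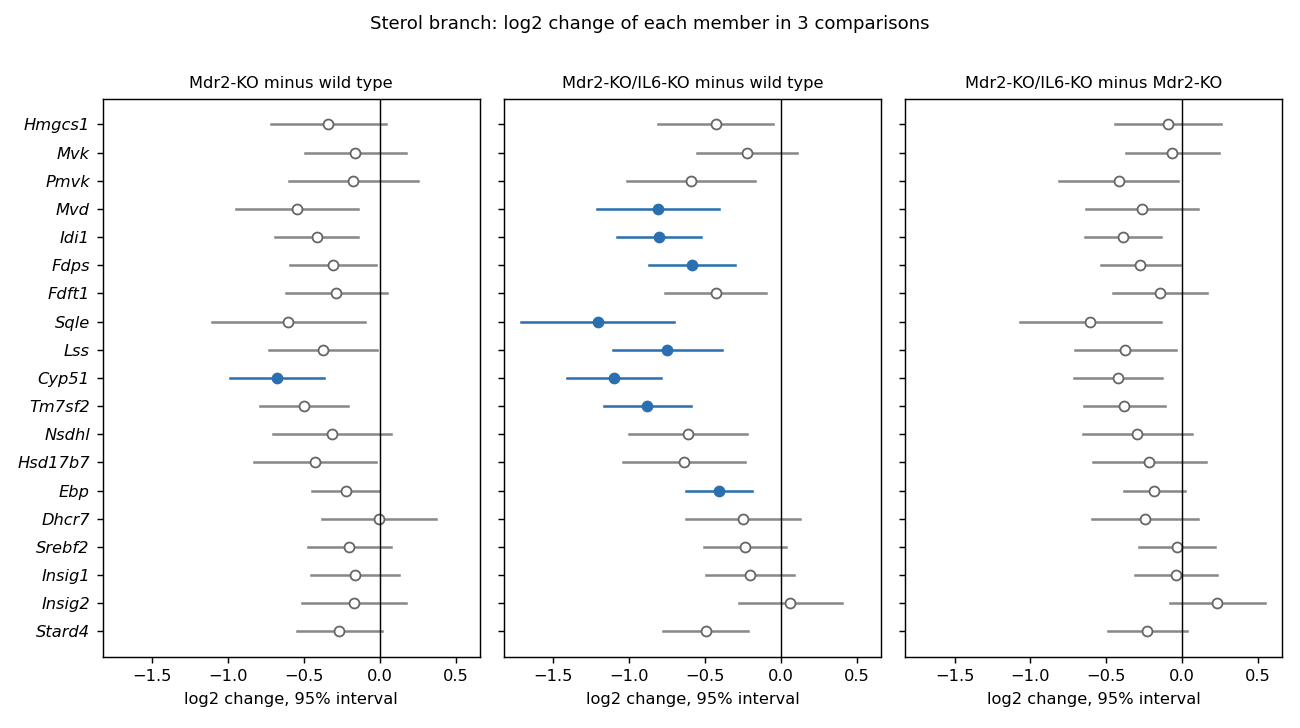
Log2 change (x axis) of each of the 19 sterol genes in the 3 comparisons, as the limma estimate with its 95% interval, in pathway order from top to bottom with the regulators and the carrier last; filled blue points are called at an adjusted p under 0.05. Nearly all points lie left of 0, with 8 called in Mdr2-KO/IL6-KO minus wild type, 1 in Mdr2-KO minus wild type and 0 between the knockout groups.

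In the lipogenic branch, 1 of the 3 genes that supply acetyl-CoA and NADPH fell. Acss2 makes acetyl-CoA from acetate and can feed both pathways. Its log2 levels were 10.01, 10.42 and 9.79 in the wild-type arrays, 9.22, 9.39, 9.56 and 9.60 in the Mdr2-KO arrays and 8.70, 9.14, 9.07 and 9.29 in the double-knockout arrays. Both knockout groups lay wholly below wild type and overlapped each other. Acss2 fell 2.03-fold in Mdr2-KO/IL6-KO (-1.02 ± 0.16 log2 units, limma adjusted p = 0.00268), a call kept without any single array, and in Mdr2-KO its log2 change was -0.63 (adjusted p = 0.0903). Acly, which makes acetyl-CoA from citrate, had log2 changes of -0.38 in Mdr2-KO/IL6-KO and -0.17 in Mdr2-KO and was not called. Me1, the malic enzyme that yields NADPH, was lower in Mdr2-KO than in the double knockout, with log2 changes from wild type of -0.33 and -0.20, neither called; its other probe set gave -0.34 and -0.25.

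Of the 3 genes that build the fatty acid chain, 1 fell, and it did so in both knockout groups. Acacb, the acetyl-CoA carboxylase at the mitochondrion whose malonyl-CoA restrains fatty acid oxidation, had levels of 8.51, 8.84 and 8.60 in the wild-type arrays, 7.28, 7.91, 7.85 and 7.80 in the Mdr2-KO arrays and 7.40, 7.42, 7.54 and 8.03 in the double-knockout arrays. The knockout groups overlapped for most of their range and lay far below wild type. Acacb fell 2.08-fold in Mdr2-KO/IL6-KO (-1.05 ± 0.17 log2 units, limma adjusted p = 0.00351) and 1.92-fold in Mdr2-KO (-0.94 ± 0.17 log2 units, adjusted p = 0.0160). The former call held without any single array, and the latter was lost without wild-type replicate 2 (adjusted p = 0.0896) or 3 (0.0548). Acaca, the cytosolic carboxylase that feeds synthesis itself, was not called, with log2 changes of -0.22 and -0.07 in Mdr2-KO/IL6-KO and Mdr2-KO and of -0.27 and -0.11 by its other probe set. Fasn, fatty acid synthase, averaged 10.40 ± 0.41 (SD) over the 3 wild-type arrays, 10.06 ± 0.27 over the 4 Mdr2-KO arrays and 9.81 ± 0.30 over the 4 double-knockout arrays. Its arrays overlapped between all groups, and the log2 change of -0.59 in Mdr2-KO/IL6-KO (95% interval -1.02 to -0.16) had an adjusted p of 0.148.

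**Figure D3:**
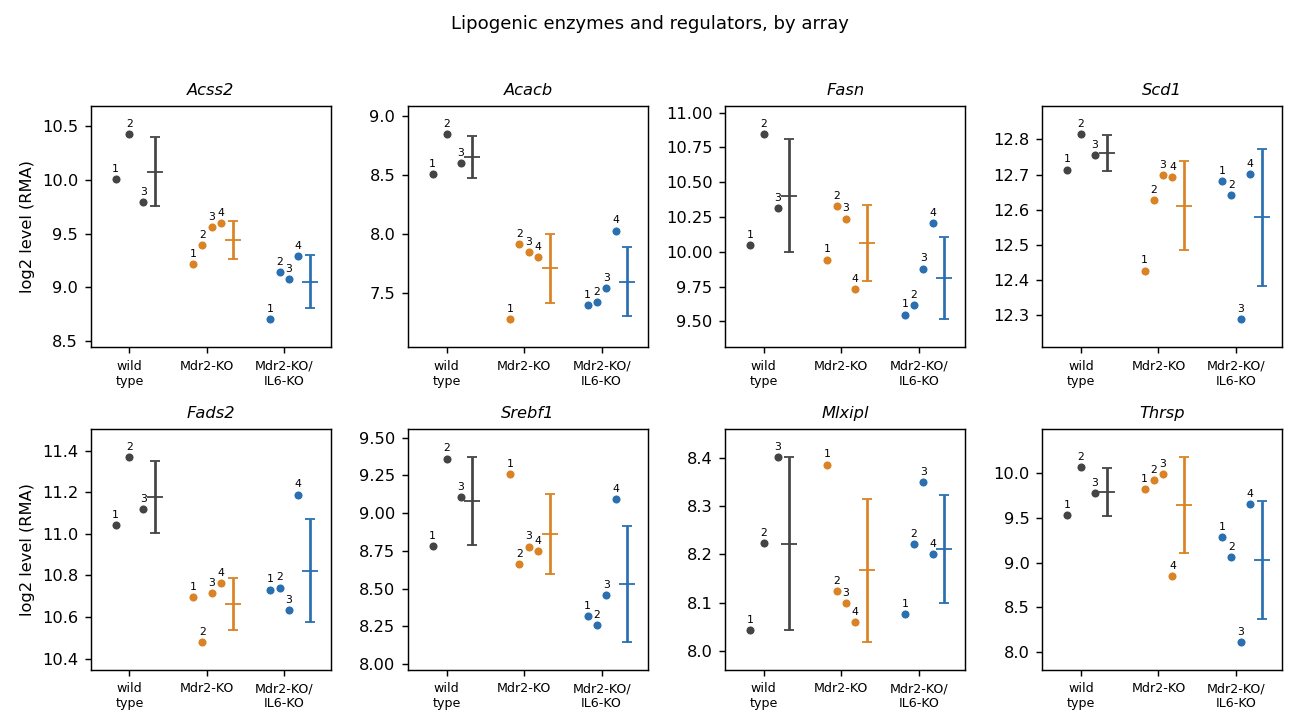
Deposited log2 level (y axis, a separate scale for each gene) of 8 lipogenic genes, 1 point per array with its replicate number; the bar beside each group gives mean and SD (n = 3, 4 and 4). Acss2, Acacb and Scd1 have all knockout arrays below wild type, Scd1 by little and without a call. Fasn, Srebf1, Mlxipl and Thrsp have overlapping groups.

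None of the 5 genes for elongation and desaturation was called. Fads2, the first desaturase of polyunsaturated fatty acids, came nearest, in Mdr2-KO: its levels were 11.04, 11.37 and 11.12 in the wild-type arrays, 10.70, 10.48, 10.72 and 10.76 in the Mdr2-KO arrays and 10.73, 10.74, 10.63 and 11.19 in the double-knockout arrays. The Mdr2-KO arrays were all below wild type, and in the double knockout only replicate 4 reached the wild-type range. The log2 change was -0.51 in Mdr2-KO (limma adjusted p = 0.0955) and -0.35 in Mdr2-KO/IL6-KO (adjusted p = 0.197), and without Mdr2-KO/IL6-KO replicate 4 both passed. Fads1, Elovl6 and Elovl5, a second desaturase and the elongases of saturated and of polyunsaturated chains, had log2 changes in Mdr2-KO/IL6-KO of -0.26, -0.46 and -0.33. Scd1, which makes oleate from stearate, had log2 changes of -0.18 in Mdr2-KO/IL6-KO (95% interval -0.42 to 0.06) and -0.15 in Mdr2-KO (-0.39 to 0.09), although no knockout array reached the wild-type range in either. Of the glycerolipid genes, Gpam, the acyltransferase that opens triglyceride synthesis, had a log2 change of -0.20 in Mdr2-KO/IL6-KO and Pnpla3, a lipid droplet protein, one of -0.42 (adjusted p = 0.0813).

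The 3 lipogenic regulators were not called. Srebf1 had levels of 8.78, 9.36 and 9.11 in the wild-type arrays, 9.26, 8.66, 8.78 and 8.75 in the Mdr2-KO arrays and 8.32, 8.26, 8.46 and 9.10 in the double-knockout arrays. Mdr2-KO replicate 1 and Mdr2-KO/IL6-KO replicate 4 lay among the wild-type arrays, and Mdr2-KO replicate 3 stood at their lower edge. The log2 change of Srebf1 was -0.55 in Mdr2-KO/IL6-KO (95% interval -0.99 to -0.11, limma adjusted p = 0.186) and -0.22 in Mdr2-KO, and the former was called without Mdr2-KO/IL6-KO replicate 4. Mlxipl, which encodes the carbohydrate-sensing factor ChREBP, had nearly equal means of 8.22 ± 0.18 (SD, n = 3), 8.17 ± 0.15 (SD, n = 4) and 8.21 ± 0.11 (SD, n = 4), with a log2 change in Mdr2-KO/IL6-KO of -0.01 (95% interval -0.25 to 0.23). Thrsp, a small nutrient-responsive promoter of lipogenesis, was the most variable member within the knockout groups, with levels of 9.53, 10.07 and 9.78 in the wild-type arrays, 9.82, 9.92, 9.99 and 8.85 in the Mdr2-KO arrays and 9.29, 9.06, 8.12 and 9.65 in the double-knockout arrays. Mdr2-KO replicate 4 was far below the rest of its group, and Mdr2-KO/IL6-KO replicate 3 was the lowest array of all. Its log2 change in Mdr2-KO/IL6-KO, -0.76, had a 95% interval of -1.46 to -0.06 and an adjusted p of 0.267.

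**Figure D4:**
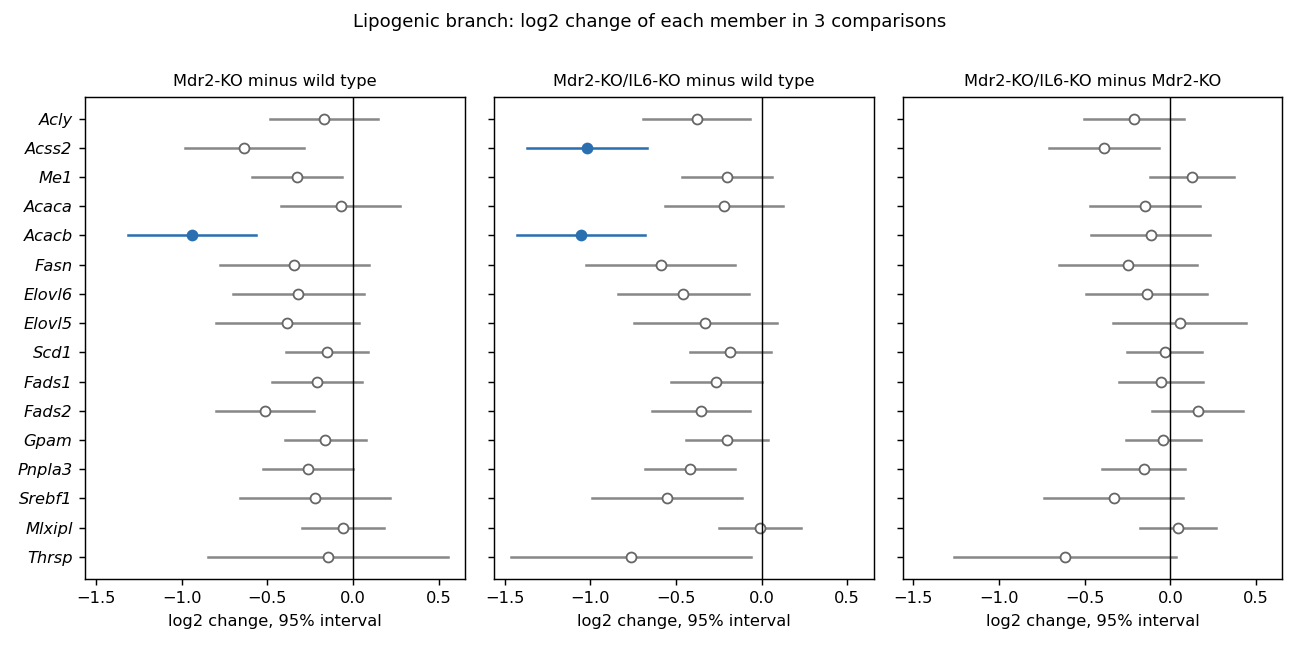
Log2 change (x axis) of each of the 16 lipogenic genes in the 3 comparisons, as the limma estimate with its 95% interval, ordered by role with the regulators last; filled blue points are called at an adjusted p under 0.05. In Mdr2-KO/IL6-KO minus wild type Acss2 and Acacb stand apart from the other genes on the left, and the intervals between the knockout groups mostly span 0.

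Setting both knockout groups against each other addresses the loss of interleukin 6 where Mdr2 is already missing. It shares its arrays with the comparisons above. No member passed with limma (0 of 35, and 0 under every alternative run), and at an unadjusted p under 0.05 there were 7 of 19 sterol genes and 1 of 16 lipogenic genes, all lower, where 2.04% of all genes were lower at that level. The sterol median was -0.25 and the lipogenic one -0.13, against 0.01 over all genes. The former was -0.14 without Mdr2-KO/IL6-KO replicate 1, and the latter -0.05 without Mdr2-KO replicate 2. A lower mean in the double knockout was found for 18 of 19 sterol and 12 of 16 lipogenic genes, where 46.1% of all genes had one, and arrays did not overlap for 1 sterol gene, Tm7sf2, where 0.908% of all genes lay lower without overlap. The lowest p in the sterol branch belonged to Idi1, with a log2 change of -0.39 (95% interval -0.64 to -0.14) and an adjusted p of 0.834, and to Cyp51, at -0.42 (-0.71 to -0.14) with an adjusted p of 0.911. In the lipogenic branch they were Acss2, at -0.39 (-0.71 to -0.06), and Thrsp, at -0.62 (-1.27 to 0.03), both with an adjusted p of 0.9995. Sqle, at -0.60 (-1.07 to -0.14), had the widest drop of the sterol genes. For Acacb the interval of the difference between the knockout groups was -0.46 to 0.23, and for Fads2 it was -0.11 to 0.43. The means ran down from wild type through Mdr2-KO to the double knockout for 18 of 19 sterol and 12 of 16 lipogenic genes, an order found for 21.9% of all genes.

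The arrays of a group also differed in the members' mean. Averaged over the 19 sterol genes, the log2 difference from the wild-type mean was -0.17, 0.24 and -0.06 in the wild-type arrays, -0.57, -0.24, -0.27 and -0.20 in the Mdr2-KO arrays and -0.82, -0.51, -0.36 and -0.53 in the double-knockout arrays. The wild-type arrays were above all others, and Mdr2-KO replicate 1 lay within the range of the double knockout. For the 16 lipogenic genes the values were -0.16, 0.24 and -0.08, then -0.33, -0.18, -0.29 and -0.43, then -0.53, -0.45, -0.57 and -0.20. Here the knockout groups overlapped. Wild-type replicate 2 was the highest of its group for 17 of 19 sterol and 15 of 16 lipogenic genes, where it was highest for 41.1% of all genes. Mdr2-KO replicate 1 was the lowest of its group for 16 of 19 sterol genes and for 5 of 16 lipogenic genes (19.04% of all genes), and Mdr2-KO/IL6-KO replicate 1 for 17 of 19 and 7 of 16 (26.1% of all genes). The branches differed in their highest double-knockout array. It was replicate 3 for 13 of 19 sterol genes (26.8% of all genes) and replicate 4 for 13 of 16 lipogenic genes (23.0% of all genes). The mean of the hepatocyte markers moved less, from -0.10 to 0.01 in Mdr2-KO and from -0.17 to -0.01 in Mdr2-KO/IL6-KO. Its lowest array, Mdr2-KO/IL6-KO replicate 3, was the highest of its group in the sterol mean. That mean joins markers that went both ways: in Mdr2-KO/IL6-KO 7 were lower and 3 higher than in wild type, with log2 changes from -0.33 to 0.25. How far a loss of hepatocyte RNA enters the branch means was not tested. Feeding state and time of sampling are not given in the sources used here.

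**Figure D5:**
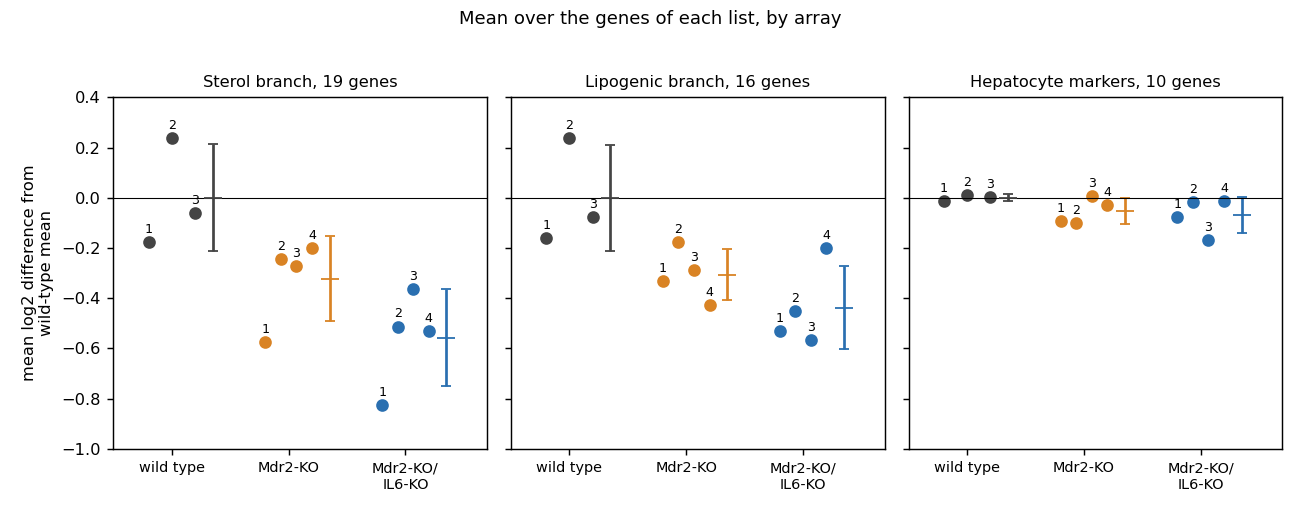
Mean log2 difference from the wild-type mean (y axis) over the 19 sterol genes, the 16 lipogenic genes and the 10 hepatocyte markers, 1 point per array with its replicate number; bars give the mean and SD of each group (n = 3, 4 and 4). The sterol mean runs from -0.82 to 0.24 over the arrays while the mean of the hepatocyte markers stays between -0.17 and 0.01. The latter joins markers that went both ways, with log2 changes from -0.33 to 0.25 in Mdr2-KO/IL6-KO against wild type.

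Partner genes of both pathways that are not members were read in the same model. Of 13 measured on the sterol side 1 fell in Mdr2-KO/IL6-KO and 0 were called in Mdr2-KO. On the lipogenic side 2 and 1 of 21 fell, and none was called between the knockout groups. Over all genes 1.28% and 0.316% were called lower in Mdr2-KO/IL6-KO and in Mdr2-KO. The partners' medians were near 0, at -0.08 in Mdr2-KO/IL6-KO and -0.05 in Mdr2-KO on both sides. In Mdr2-KO/IL6-KO 4 lipogenic partners lay below wild type without overlap and 4 above it. On the sterol side 3 lay below and 0 above, and of all 19938 genes 1284 lay below and 1964 above. Abca1, the exporter that loads cholesterol onto high-density lipoprotein, was at 9.54, 9.77 and 9.63 in the wild-type arrays, 9.39, 9.44, 9.34 and 9.03 in the Mdr2-KO arrays and 8.91, 9.13, 9.20 and 9.14 in the double-knockout arrays. All knockout arrays were below wild type, and Abca1 fell 1.46-fold in Mdr2-KO/IL6-KO (-0.55 ± 0.11 log2 units, limma adjusted p = 0.0141), with -0.34 in Mdr2-KO (adjusted p = 0.230). Fabp5, a fatty acid binding protein, was at 7.70, 8.42 and 8.28 in the wild-type arrays, 6.21, 5.46, 6.55 and 6.99 in the Mdr2-KO arrays and 6.01, 5.70, 6.04 and 5.79 in the double-knockout arrays. Both knockout groups lay far below wild type. Fabp5 fell 4.76-fold in Mdr2-KO/IL6-KO (-2.25 ± 0.28 log2 units, adjusted p = 0.000549) and 3.55-fold in Mdr2-KO, more than any member. Acsl5, which activates long-chain fatty acids, was at 10.68, 10.91 and 10.63 in the wild-type arrays, 10.21, 10.55, 10.41 and 10.41 in the Mdr2-KO arrays and 10.36, 10.39, 10.26 and 10.37 in the double-knockout arrays. Wild type was highest throughout, and Acsl5 fell 1.32-fold in Mdr2-KO/IL6-KO (adjusted p = 0.0396), a call lost on leaving out any 1 of the wild-type or double-knockout arrays or Mdr2-KO replicate 4. That of Abca1 was lost, among single arrays, without wild-type replicate 2. Msmo1 and Sc5d, enzymes of the steps after lanosterol, had log2 changes of -0.51 and -0.27 in Mdr2-KO/IL6-KO and were not called, though neither gene's double-knockout arrays overlapped wild type. Elovl1, an elongase of very long chains, had the lowest p on the lipogenic side between the knockout groups, at a log2 change of 0.21 (adjusted p = 0.9995).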

How the data were processed

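Liver RNA of 11 samples was measured on 11 arrays. The authors deposited log2 levels for 35557 probe sets, for which the submitters' processing notes name RMA and Partek, with versions and settings not given in the sources used here. These values were used as they stand (array medians 5.09 to 5.23, Pearson r between arrays 0.976 to 0.990), and the number of arrays limits their precision. RMA shares information between arrays, which narrows differences that affect whole arrays. Of the probe sets, 21789 had 1 gene symbol in the platform annotation, 1621 had several and 12147 had none; those with 1 symbol gave 19938 genes, of which 19919 matched the RefSeq table of GRCm38.p6, and 999 genes had several such probe sets.

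One linear model of the 11 arrays was fitted with limma 3.58.1 in R 4.3.3 (lmFit and eBayes, two-sided), with a mean per group, no covariates and Benjamini-Hochberg adjustment over the 19938 genes. Errors of changes are its SE, errors of levels the SD over arrays. The members and the partner, marker and motif lists were chosen with earlier results of these data known. Array values are given for members called in a comparison, for the 2 with the lowest p per branch where none was called, and for some others described for their role. The partner genes named are those called in the main model and those with the lowest p per side. Msmo1 and Sc5d were added for their role and Dgat1 for its call in an alternative fit. Array values are given for the partners called in the main model. Promoter windows came from RefSeq. Alternatives covered the choice of probe set, dim genes, normalization, variance model, array weights, threshold and left-out arrays.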

Additional observations from a re-analysis of the deposited data

Results flagged for a closer look

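Each group of 4 arrays was searched for 1 array far from the other 3, for the 35 members and for the mean of each branch. This was so in 8 of 74 such groups, all of single genes, where chance gives about 1 in 20. These groups share the same arrays and many members moved together by array, so they are not independent. An excess over chance cannot be read from this count. In the sterol branch, Mdr2-KO replicate 1 was the low one for Mvd, at a log2 level of 6.60 where the other 3 arrays lay at 7.08 to 7.12, and for Srebf2, at 7.43 where they lay at 7.76 to 7.80. Mdr2-KO/IL6-KO replicate 1 was low for Tm7sf2, at 8.82 against 9.11 to 9.16, and for Nsdhl, at 8.30 against 8.93 to 9.05. Mdr2-KO/IL6-KO replicate 3 was low for Insig2, at 10.36 against 10.44 to 10.45, and for Scd1, at 12.29 against 12.64 to 12.70. Fads1 was high in Mdr2-KO replicate 2, at 10.53 against 10.36 to 10.37, and Thrsp was low in Mdr2-KO replicate 4, at 8.85 against 9.82 to 9.99.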

How the results depend on the processing

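Of the members' calls in Mdr2-KO/IL6-KO against wild type, those of Idi1, Cyp51, Tm7sf2, Acss2 and Acacb held in all 22 alternative fits at an adjusted p under 0.05, and those of Sqle, Lss, Mvd, Fdps and Ebp in 20, 18, 17, 16 and 11. In Mdr2-KO, Acacb was called in 19 and Cyp51 in 11 of 22. No change of a called member turned sign. The sterol count of 8 in Mdr2-KO/IL6-KO became 3 with an unmoderated model and 4 at an adjusted p under 0.01, and lay between 3 and 10 when single arrays were left out. The lipogenic count of 2 lay between 2 and 4 when single arrays were left out. In Mdr2-KO the sterol count of 1 became 0 with an unmoderated model, with only the 2 groups compared, at an adjusted p under 0.01 and without Mdr2-KO replicates 2 and 3 together, and lay between 0 and 1 with single arrays left out. The lipogenic count of 1 became 0 with an unmoderated model and at 0.01, and lay between 0 and 2 with single arrays left out; it was 2 without Mdr2-KO replicate 2, with Elovl5, or without Mdr2-KO/IL6-KO replicate 4, with Fads2. The partner count of 3 in Mdr2-KO/IL6-KO was 5 over only genes above the median level. The 2 added there, Elovl1 and Dgat1, were higher than in wild type, with log2 changes of 0.31 and 0.26. That partner count was 1 with an unmoderated model or at 0.01, and between 1 and 3 with single arrays left out. The partner count of 1 in Mdr2-KO was 0 with an unmoderated model. The cause was not tested. Called in some alternatives only were, in Mdr2-KO/IL6-KO, Stard4 (10 of 22), and Nsdhl, Pmvk, Fads2 and Srebf1 (1 each). Branch medians kept their sign in every fit: the sterol median lay between -0.63 and -0.43 in Mdr2-KO/IL6-KO, between -0.40 and -0.19 in Mdr2-KO and between -0.35 and -0.14 between the knockout groups, and the lipogenic median between -0.43 and -0.27, -0.36 and -0.12, and -0.15 and -0.02, the last without Mdr2-KO replicates 2 and 3 together. No paired analysis was possible because the replicate numbers follow only the order of the samples and the titles share no numbers between groups. With 3 or 4 arrays per group and no detection calls used here, small changes of dim genes cannot be separated from array noise.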
